A study of Mus musculus with 12 samples.

Results

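Along the gene of the tyrosine kinase Fyn, RNA recovered with the chromatin protein HP1γ formed 22 regions in untreated mouse fibroblasts and 12 after a short phorbol ester treatment. These 34 regions, of 12622 in the series (10013 untreated and 2609 after treatment), are all those that overlap chromosome 10 from 39085000 to 39290000, a span of 205 kb. Positions refer to mm9, which the submitters' processing notes give as the build, with starts counted from 1. The span was chosen because it lies in the 1 Mb window with the most regions after treatment, so the number of treated regions is a description here and supports nothing.

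The data come from RNAchIP-seq, in which chromatin of lightly crosslinked nuclei is solubilised, HP1γ is immunoprecipitated, and the RNA that comes down with it is sequenced beside the RNA of the chromatin input. All cells were MEF-derived lines, from embryonic mouse fibroblasts without HP1γ (gene Cbx3), into which HP1γ had been put back, so no group has the endogenous gene. There were 12 libraries in 4 groups of 3 replicates: input and HP1γ-IP from untreated cells, and input and HP1γ-IP from cells given 100 nM PMA (phorbol 12-myristate 13-acetate) in DMSO for 30 min. The labels name no vehicle for the untreated cells, no number of clones and no mock IP, so recovery by the antibody and unspecific recovery of RNA cannot be told apart, and the cells without HP1γ that the design text mentions were not analysed here. What was deposited is 1 list of IP-enriched regions for each condition, 2 in all, so no value has a replicate error and no difference between the conditions at a region could be tested.

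Fyn is a member of the Src family of non-receptor tyrosine kinases. It is anchored to the inner face of the plasma membrane by lipid groups, binds partners through SH domains, and is held inactive when the kinase Csk phosphorylates its tail. In fibroblasts Fyn works with its relatives Src and Yes downstream of integrins and growth factor receptors, where it takes part in adhesion and migration. HP1γ binds methylated histone H3 through its chromodomain and is found in heterochromatin and along transcribed genes. PMA stands in for diacylglycerol and activates protein kinase C. These are statements of background and were not measured here.

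The place of Fyn in mm9 is that of the rule, and no mm9 annotation was used, so no region is assigned to an exon, intron or UTR. In RefSeq's table for GRCm38.p6, another build, Fyn is 195.6 kb long and lies on the plus strand, so the low end of the span is taken as the 5′ side. There it lies between the coding genes Ccn6, a secreted matrix-associated protein, and Traf3ip2, an adaptor in interleukin-17 receptor signalling. A long non-coding RNA gene, Gm16364, overlaps Fyn in that table, at the 3′ end by order of coordinates. The lists hold no strand, so RNA of Fyn and of an overlapping gene cannot be told apart. They also hold no RNA level of Fyn, and in such bulk samples fewer cells with the RNA and less RNA per cell cannot be told apart.

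In both lists the stretch without regions beside Fyn was far longer on the 5′ side than on the 3′ side. The first untreated region began 6.4 kb into the span and the first PMA region 4.6 kb into it, while the last ended 10.4 and 10.3 kb before its far end. The last untreated region before the span ended 323.8 kb away (38760392 to 38761223, fold 3.89) and the last PMA region 337.4 kb away (38746876 to 38747557, fold 2.86). On the far side the next untreated region began 39.3 kb beyond the span (39329320 to 39330225, fold 4.46) and the next PMA region 46.0 kb beyond it (39335996 to 39336665, fold 3.84). From the last untreated region at Fyn to the next was 49.7 kb, where the longest gap between untreated regions inside the span was 32.8 kb. From the last PMA region at Fyn to the next was 56.3 kb, where the longest gap between PMA regions inside the span was 43.3 kb. The stretch from the first to the last PMA region was 190.1 kb long.

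The span held 10.7 untreated regions and 5.85 PMA regions per 100 kb, where the lists as a whole held 0.393 and 0.105. In the window with most PMA regions (38739990 to 39617090), 12 of 22 PMA regions and 22 of 46 untreated regions lay in the Fyn span. The 345.0 kb of the window before the span had 4 PMA and 3 untreated regions, and the 327.1 kb after it had 6 and 21. When the genome was cut into pieces of 205 kb in step with the span, 3195 pieces held at least 1 region. Of these, 19 had at least 22 untreated regions and 5 had at least 12 PMA regions, the Fyn piece included in each. In the 35 pieces with 17 to 27 untreated regions, a range set after seeing the data, the number of PMA regions ran from 0 to 12 with a median of 6. Fyn had 0.545 PMA regions per untreated region, against 0.261 over the lists. Since the span was chosen for its many PMA regions, this ratio and its place among the pieces follow in part from the choice.

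The lists were not built alike, and the order of the numbers turned in some settings and held in others. Each region names the peaks joined in it, and no region has fewer than 3. The names in the untreated list come from replicates 1, 2 and 3, and those in the PMA list from replicates 2 and 3 only. When the member peaks of untreated replicate 1, 2 or 3 were left out and 3 were still required, 4, 2 and 5 untreated regions remained at Fyn, fewer than the 12 after PMA. Over the whole list 1505, 1988 and 2367 remained, also fewer than the 2609 after PMA. Untreated regions mostly have 1 peak from each replicate, and such regions cannot reach 3 from a pair of replicates, so most of this fall was fixed in advance. With the untreated list cut to the length of the PMA list by −log10 q, 5 untreated regions remained at Fyn. The PMA list was not cut and kept −log10 q values down to 0.418, so this order was not compared at a like threshold. With −log10 q of at least 3 in both lists the order held, with 11 untreated and 10 PMA regions. It also held with neighbours joined within 1 kb, with 19 and 12.

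**Figure D1:**
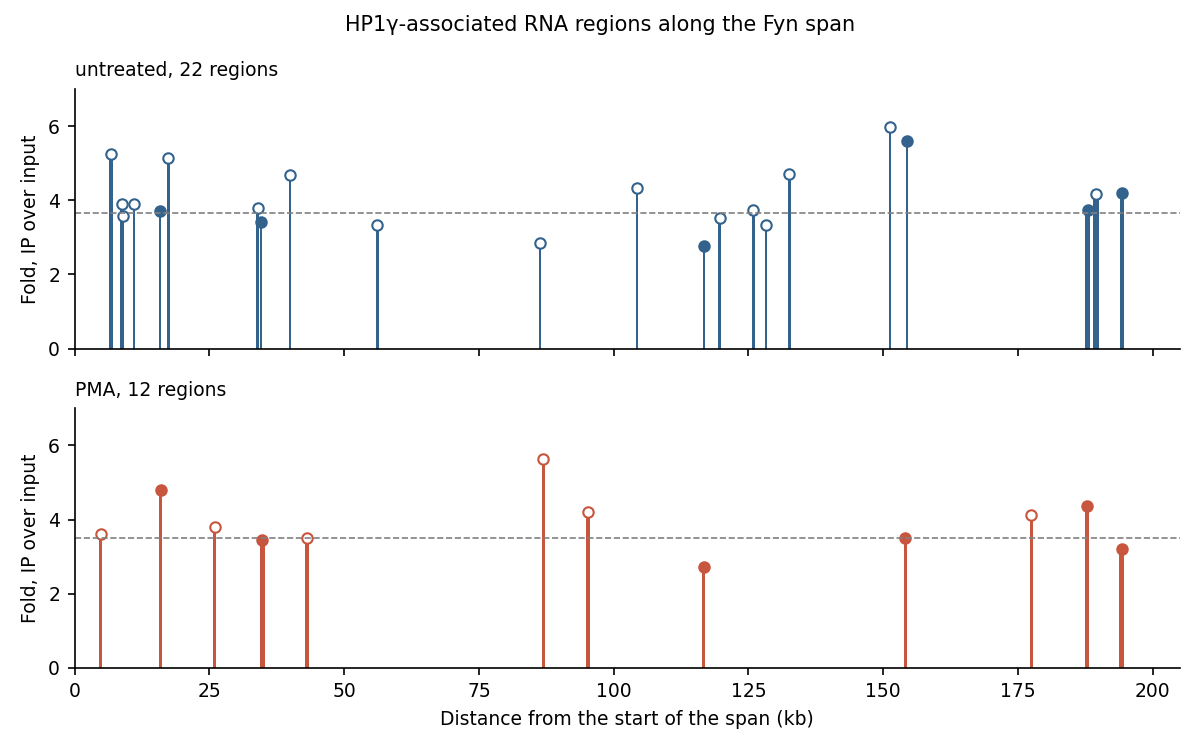
Regions along the Fyn span, with the distance from the start of the span in kb on the x axis and the authors' fold of IP over input on the y axis; bars have the width of the region, filled points overlap a region of the other list, open points do not, and dashed lines are the medians of the whole lists. Of the 22 untreated regions 9 sit in the first 41 kb, and PMA regions leave a gap of 36.8 kb where 5 untreated regions lie.

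Regions were unevenly spread along the span. Cut into 5 equal stretches of 41 kb, the span held 9, 1, 4, 5 and 3 untreated regions from the 5′ to the 3′ side, and 4, 1, 3, 1 and 3 PMA regions. The first stretch held 40.9% of untreated regions. It held 0% of the 2 to 5 that remained without any 1 of the untreated replicates. That share was fixed in advance, since every untreated region in this stretch has exactly 1 member peak from each replicate. The fold of a region is the authors' own value, read as the mean over the peaks joined in it.

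In the first stretch the strongest untreated region was the one nearest the 5′ side (39091417 to 39092062), 646 bp wide with a fold of 5.24. It was followed at 8.5, 8.9 and 10.8 kb by 3 narrower regions with folds of 3.91, 3.58 and 3.90. The first PMA region (39089592 to 39090124) was 533 bp wide with a fold of 3.60 and ended 1292 bp before the first untreated one. It also had the second highest mean −log10 q of the PMA regions at Fyn, 6.91. The 5′ edge of enrichment was thus marked by a region in each list, but these did not overlap. At 15.7 kb the lists met: a PMA region (39100704 to 39101242) of fold 4.79 held a whole untreated region (39100709 to 39101027) of fold 3.70. A further untreated region lay 886 bp beyond it (39102129 to 39102642), with a fold of 5.14.

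From 25 to 43 kb the lists alternated. A PMA region at 25.7 kb (39110727 to 39111281, fold 3.79) had its nearest untreated region 7.4 kb away. Near 34 kb, a 931 bp PMA region (39119322 to 39120252, fold 3.45), the widest of the 12, held an untreated region of fold 3.42 (39119439 to 39119814). Another untreated region, at 33.7 kb (39118725 to 39119243, fold 3.80), ended 78 bp short of it. The untreated region at 39.7 kb (39124695 to 39125130) had a fold of 4.69, and the PMA region at 42.8 kb (39127768 to 39128360) one of 3.50. They lay 2637 bp apart.

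The stretch from 41 to 82 kb was sparse in both lists, with 1 region in each. Beyond 43 kb the PMA list had a gap of 43.3 kb, the longest of its 11, and the untreated list had 2 regions there. The first, at 55.9 kb (39140872 to 39141368, fold 3.34), was followed by 29.8 kb without any, and the second lay at 86.2 kb. The gaps ended close together in the lists. The untreated region at 86.2 kb (39171162 to 39171439) had a fold of 2.84 and the lowest mean −log10 q of the 22, 0.713. The strongest PMA region began 251 bp further (39171691 to 39172188). That region had a fold of 5.64, higher than 96.8% of the PMA list, and the highest mean −log10 q of the PMA regions at Fyn, 8.77, but it was only 498 bp wide, the narrowest of the 12. A second PMA region without an untreated partner followed at 94.8 kb (39179836 to 39180574, fold 4.19). The untreated list instead had a region at 104.1 kb (39189059 to 39189393, fold 4.32), 8.5 kb from the nearest PMA region.

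From 116 to 155 kb untreated regions outnumbered those after PMA. The lists met at 116.4 kb, where both regions had low folds, 2.73 after PMA (39201393 to 39201988) and 2.77 untreated (39201491 to 39201919). Then 5 untreated regions, from 119.4 to 151.1 kb, fell in a gap of 36.8 kb in the PMA list. Their folds were 3.52, 3.73, 3.33, 4.70 and 5.97. The last of these (39236119 to 39236463) was the strongest untreated region at Fyn, only 345 bp wide; its fold exceeded 97.1% of the untreated list and its mean −log10 q was 7.08. The fourth (39217290 to 39217839) was the only untreated region at Fyn without a member peak of every replicate, with 2 from replicate 1, 1 from replicate 2 and none from replicate 3. At 154 kb an untreated region of fold 5.60 (39239235 to 39239535) met a PMA region of fold 3.49 (39238757 to 39239404).

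The 3′ side held 3 regions in each list. A PMA region at 177.2 kb (39262171 to 39262677, fold 4.12) lay in a gap of 32.8 kb in the untreated list, the longest there. At 187 kb a 1000 bp untreated region (39272364 to 39273363, fold 3.74) held a 686 bp PMA region (39272492 to 39273177, fold 4.36). The next untreated region (39273947 to 39275033, fold 4.16) was the widest at Fyn, at 1087 bp, and joined 6 peaks, 2 from each replicate. The last pair, at 193.8 kb, had folds of 4.18 untreated (39278905 to 39279628) and 3.20 after PMA (39278835 to 39279655).

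Regions at Fyn were close together in both lists. The median gap between neighbours was 3.87 kb untreated and 9.81 kb after PMA. Another region of the same list lay within 10 kb of 19 of 22 untreated regions, where the background over the list was 63.7%, and of 9 of 12 PMA regions, where it was 42.1%. Since the span was chosen for its many PMA regions, the last of these shares follows in part from the choice.

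Fold at Fyn was close to that of the lists, and the PMA regions were narrower than their list. The 22 untreated folds ran from 2.77 to 5.97 with a median of 3.85 (95% order-statistic interval 3.52 to 4.69), where the whole list had a median of 3.65. The 12 PMA folds ran from 2.73 to 5.64 with a median of 3.70 (3.45 to 4.36), where the list had 3.50. The highest folds of the lists were 12.5 and 10.2. The folds of the conditions overlapped almost fully, and each median lay inside the other's interval.

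Untreated widths ran from 260 to 1087 bp with a median of 474 bp (345 to 558), against 528 bp for the list. PMA widths ran from 498 to 931 bp with a median of 594.5 bp (533 to 739), against 780 bp. The interval for PMA lay wholly below the median of its list, and the interval for untreated regions held the list's median. Without untreated replicate 1, 2 or 3 the untreated median was 787.5, 1043.5 or 575 bp, over the few regions that remained and with their bounds as deposited. These intervals cover counting error only, and regions of 1 gene are not independent. Together the regions covered 11.1 kb untreated and 7.65 kb after PMA.

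**Figure D2:**
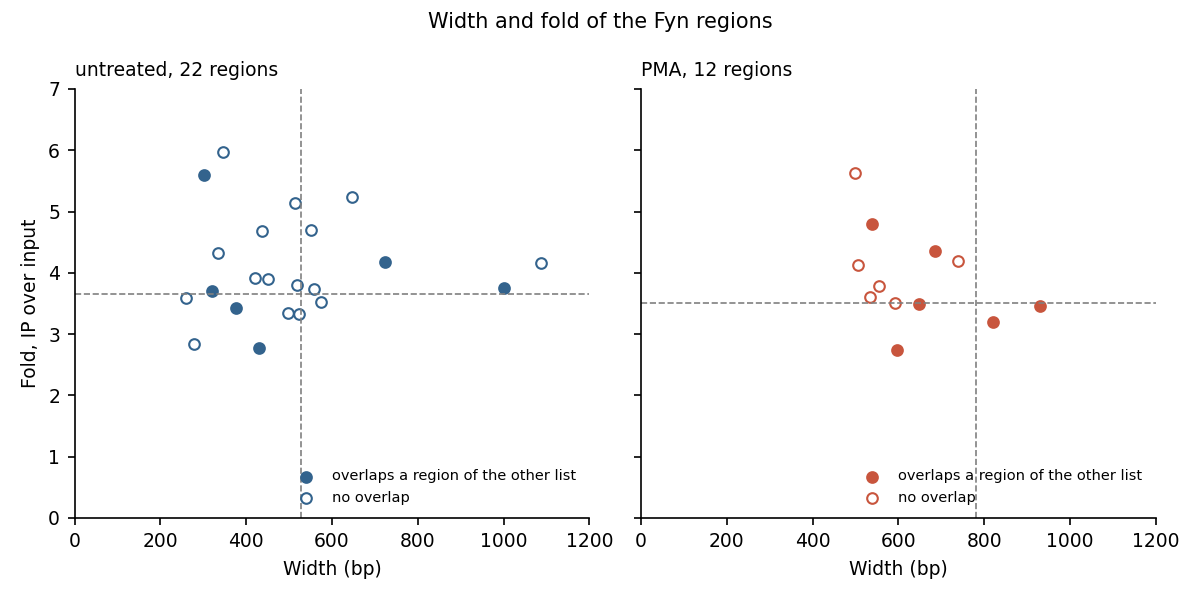
Width in bp against the authors' fold of IP over input for the 22 untreated and 12 PMA regions at Fyn; dashed lines are the medians of the whole lists and filled points overlap a region of the other list. The PMA regions have a median width of 594.5 bp, left of the list's 780 bp.

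The −log10 q values given by the authors had lower medians at Fyn than over the lists, within wide intervals. Above the median of their own list were 6 of 22 untreated and 5 of 12 PMA regions. The median of the mean −log10 q was 2.93 untreated (95% order-statistic interval 2.03 to 4.61) and 3.84 after PMA (3.46 to 5.52), against 3.59 and 4.24 over the lists, inside these intervals. A value of at least 3 was reached by 11 of 22 untreated regions, with a background of 63.5%, and by 10 of 12 PMA regions, with a background of 73.1%. A value under −log10 of 0.05 was found in 2 untreated regions, the one at 86.2 kb and the one at 128.0 kb (39213033 to 39213556, 1.21), with a background of 3.34%. It was found in 0 of 12 PMA regions, with a background of 2.45%.

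Replicate support differed between the lists by their construction. Of the 22 untreated regions 21 had member peaks in all 3 replicates (background 91.9%) and 17 had exactly 1 in each (background 69.9%). More than 3 member peaks stood behind 4 untreated regions (background 22.5%): those at 119.4 and 128.0 kb with 4, and the neighbours at 187.4 and 188.9 kb with 5 and 6. All 12 PMA regions had exactly 3 member peaks (background 83.6%). In 7 of them replicate 2 gave 2 peaks and replicate 3 gave 1, and in the other 5 it was the reverse. Every PMA region at Fyn therefore rests on a stretch that was called as a pair of peaks in 1 replicate and as a single peak in the other.

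The lists met at 6 places along the gene. An untreated partner, overlapping by at least 1 bp, was found for 6 of 12 PMA regions, or 50% (exact Clopper-Pearson 95% interval 21.1 to 78.9), where the background over the list was 54.8%. In the other direction 6 of 22 untreated regions, or 27.3% (10.7 to 50.2), had a PMA partner, where the background was 15.5%, inside that interval. The background for PMA regions also lay inside its interval. These intervals cover counting error only, and regions of 1 gene are not independent, so a difference from the lists was not tested. The untreated share also follows in part from the choice of a span with many PMA regions. The share of PMA regions with a partner was 8.33% without any 1 of the untreated replicates, 16.7% with the untreated list cut to the length of the PMA list by −log10 q, and 10.0% with only regions of −log10 q 3 or more in each list, where the untreated share was 9.09%. With a partner allowed up to 1 kb away, the shares were 58.3% after PMA and 45.5% untreated.

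**Figure D3:**
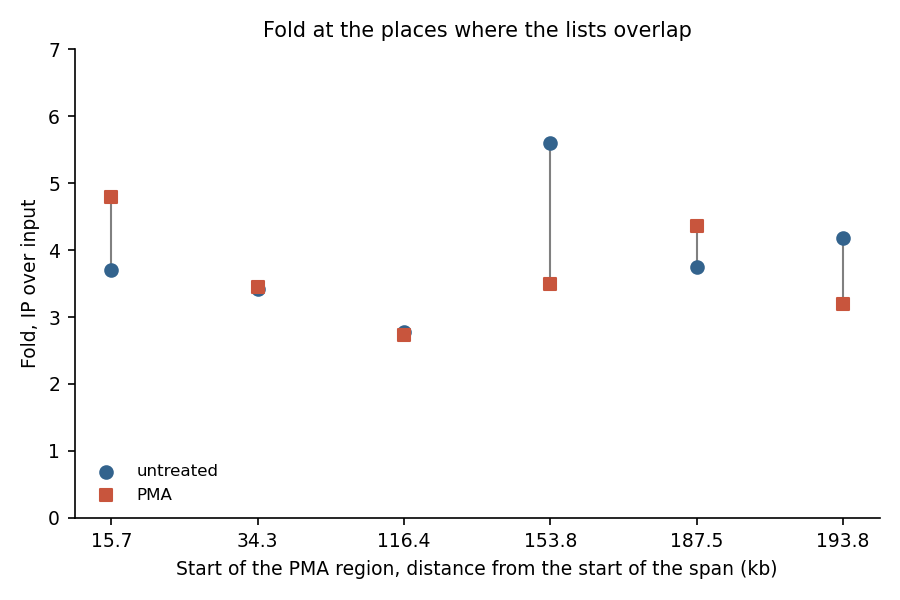
The authors' fold of IP over input in the untreated (circles) and PMA (squares) region at each of the 6 places where the lists overlap, ordered along the gene by the start of the PMA region in kb. The PMA fold is the higher at 3 places and the lower at 3.

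At these 6 places the fold moved in either direction. It was higher after PMA at 15.7 kb, by 1.09, at 187.5 kb, by 0.613, and at 34.3 kb, by 0.0315. After PMA it fell by 2.10 at 153.8 kb, fell by 0.980 at 193.8 kb and fell by 0.0389 at 116.4 kb. The PMA region thus had the higher fold in 3 of 6 pairs, where the background over 1572 pairs was 45.9%. It was the wider in 5 of 6 pairs (background 73.0%), and in 4 of 6 the untreated region lay wholly inside it (background 34.7%). Every PMA region here holds a pair of peaks from 1 replicate by the construction of its list. Of the 6 untreated partners, 5 have exactly 1 peak from each replicate. Widths and nesting thus compare lists built differently, and an effect of PMA on them was not tested. The largest difference in fold, at 153.8 kb, was also the pair with the least overlap, 170 bp.

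The numbers of the member peaks show more of each replicate than the regions do. Within each replicate these numbers rose along every chromosome without exception. The difference between the first and the last number at Fyn thus counts the peaks called between them, joined or not. Joined here means named in a deposited region, so a peak joined and then filtered out would count as not joined. From the first to the last region at Fyn, 106, 57 and 38 peaks were called in replicates 1, 2 and 3 of the untreated cells, and 77 and 122 in replicates 2 and 3 of the PMA-treated cells. The order followed the peaks called in all, at least 87348, 40773 and 33450 untreated and 49502 and 92243 after PMA. As shares of these totals, the Fyn calls were 0.121%, 0.140% and 0.114% untreated and 0.156% and 0.132% after PMA. The groups overlapped in number and in share: untreated replicate 1 had more calls than PMA replicate 2, and the share of untreated replicate 2 was above that of PMA replicate 3.

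In 4 of 5 replicates most peaks called at Fyn were not part of a region, the exception being untreated replicate 3. Of the calls at Fyn, 23.6%, 45.6% and 57.9% were joined in untreated replicates 1, 2 and 3, where the backgrounds were 13.6%, 27.1% and 31.3%. After PMA 24.7% and 13.9% were joined in replicates 2 and 3, where the backgrounds were 8.85% and 4.34%. The span was chosen for its many PMA regions, and so for joined PMA peaks, and nothing is read from the shares after PMA. The stretch begins and ends at a joined peak by construction, which adds to these shares.

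**Figure D4:**
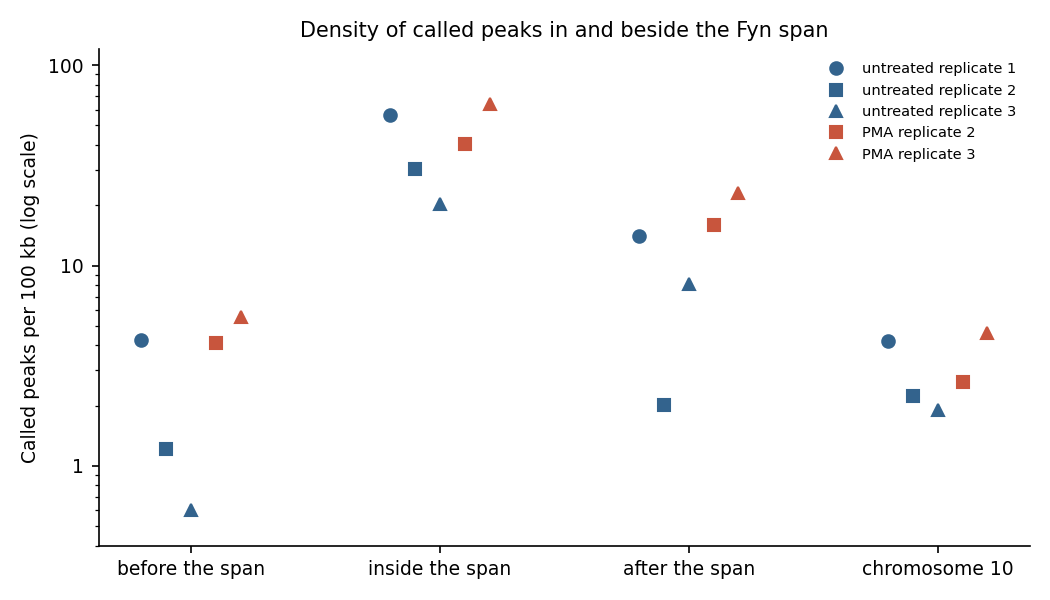
Called peaks per 100 kb (log scale) in each replicate, in the region-free stretch before the Fyn span, from the first to the last region inside it, in the region-free stretch after it, and over chromosome 10. All 5 replicates sit highest inside the span, at 20.2 to 64.2, in part by the choice of a span with many PMA regions.

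The density of called peaks was higher at Fyn than over chromosome 10 in every replicate. Inside the span it was 56.3, 30.3 and 20.2 per 100 kb for replicates 1, 2 and 3 without treatment, and 40.5 and 64.2 for replicates 2 and 3 with PMA. Over chromosome 10 it was 4.18, 2.24 and 1.91 untreated and 2.63 and 4.60 after PMA. The ratio of these was 13.5, 13.5 and 10.6 untreated and 15.4 and 14.0 after PMA. Calls were thus at least 10.6 times as dense at Fyn as over the chromosome in all 5 replicates. A higher density follows in part from choosing the span for its PMA regions, and from a stretch that begins and ends at a joined peak. The PMA replicates had the higher ratios, without overlap, but PMA calls were used by the rule that chose the span.

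In the 330.2 to 342.0 kb before the first region at Fyn, where no peak of the replicate was joined, called peaks were less dense than at Fyn but not always below the density over chromosome 10. In the same order of replicates there were 4.24, 1.21 and 0.606 per 100 kb untreated, and 4.09 and 5.56 after PMA. After the span, over 49.7 kb untreated and 56.3 kb after PMA, the densities were 14.1, 2.01 and 8.05 untreated and 16.0 and 23.1 after PMA. These stretches were defined by having no joined peak, so a lower density there is partly set by the choice.

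**Figure D5:**
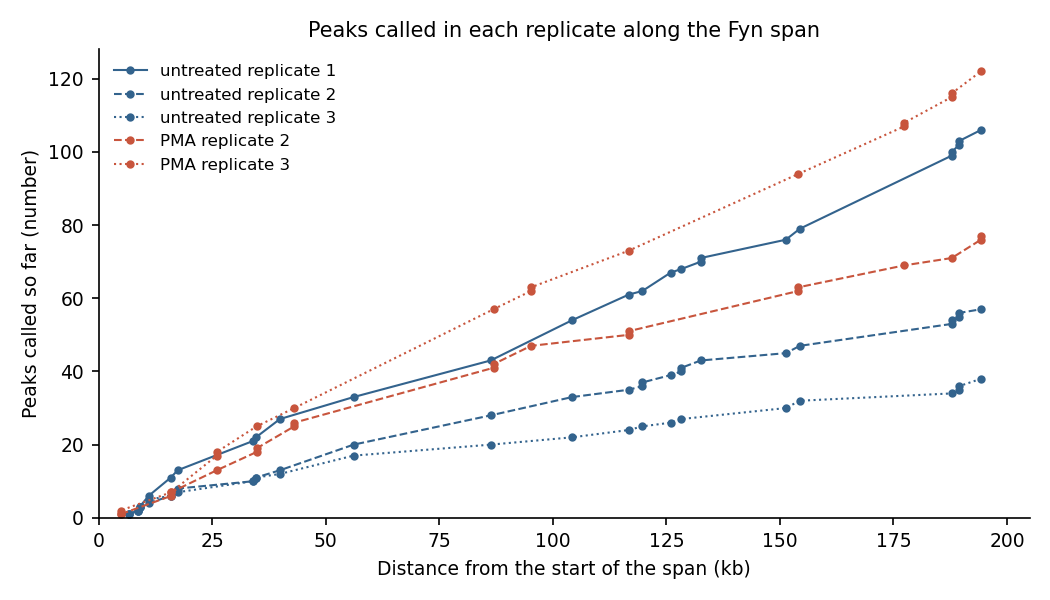
Running number of called peaks in each replicate, joined or not, against the distance from the start of the span in kb; points are peaks joined in regions, and a steeper line means more calls per kb. The lines end at 106, 57 and 38 (untreated) and 77 and 122 (PMA), and PMA lines go on rising through the gaps of the PMA list.

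The gaps in the PMA list were not free of calls. In the 36.8 kb gap that held 5 untreated regions, PMA replicates 2 and 3 had 10 and 20 called peaks in no deposited region. In the 43.3 kb gap before the strongest PMA region they had 14 and 26. Conversely, in the 32.8 kb gap of the untreated list, where the PMA region at 177.2 kb lay, untreated replicates 1, 2 and 3 had 19, 5 and 1 calls. Whether such calls overlapped between replicates cannot be read from the lists, which give no position for a peak outside the deposited regions. A place with 1 peak in each of PMA replicates 2 and 3 falls short of the 3 peaks that every region has. Overlapping calls of this kind would leave a gap in the PMA list and would not add to its 12 regions at Fyn.

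The 6 shared places divide the gene into the same 5 stretches in all replicates. Between the first and the last of them lay 94, 50 and 31 further untreated calls (replicates 1, 2 and 3), and 68 and 114 after PMA (replicates 2 and 3). The first stretch, about 16 to 34 kb into the span, had 10.6%, 8.0% and 12.9% of these untreated and 14.7% and 14.9% after PMA, higher after PMA without overlap. The third, about 117 to 154 kb, had 18.1%, 22.0% and 22.6% untreated and 14.7% and 17.5% after PMA, lower after PMA without overlap. In the other 3 stretches the replicates of the conditions overlapped. The shares rest on 4 to 20 calls per replicate in these stretches, and the stretches were set by the regions themselves. An exact permutation test of 3 replicates against 2 can give no one-sided p below 0.1, so none was made. How often stretches elsewhere lack overlap was not counted, so nothing is read from the first and the third.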

How the data were processed

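RNA of chromatin input and of the HP1γ-IP was sequenced in 12 libraries as 65-bp single-end reads from directional libraries, per the labels' protocols. Tools named in the submitters' processing notes are MACS2 2.1.0, STAR 2.5.0a, cutadapt 1.11, Subread, featureCounts 1.4.6-p3 and deepTools, with mm9 as the build; the sources used here do not give their settings. The deposited lists have the narrowPeak layout: fold enrichment is a ratio of IP over input, beside −log10 q values, p values and a score, all taken as the authors' means over the member peaks of a region. Read depth is unknown. As neither of the 2 lists has a value for a single library, the planned count model was not run. Replicates are biological per the design text.

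Regions overlapping the span by at least 1 bp were taken from each list and described with Python 3.11.15, pandas 2.3.3, numpy 2.4.6, scipy 1.17.1 and matplotlib 3.10.9. Partners overlap by at least 1 bp. Called peaks were counted from the peak numbers in the deposited lists, a measure added after seeing the files. The highest number gives the least total per replicate. The code was tested on simulated lists with known answers. Regions named are all those after PMA and, of the untreated, those with a partner, the 5 highest by fold and by −log10 q, the 5 widest, the first and last, and those lacking a replicate; others were named after their values were seen. The span, the lists and the tests were chosen with earlier results of these data known. Other Src family genes and fibroblast markers were not analysed here, since no mm9 annotation was used, and no sequence is printed.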

Additional observations from a re-analysis of the deposited data

How the results depend on the processing

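No paired analysis was possible because the lists hold no values per library and no result comes from a test. Of 82 alternative values for 14 results, 58 stayed close to the reported value (counts and densities within 1.5 times, medians and shares inside their 95% intervals). This tally does not measure robustness. Some values could not move, since every region at Fyn lies wholly inside the span, and intervals from so few regions are wide. Leaving out 1 untreated replicate gave 2 to 5 untreated regions, with a median width of 575 to 1043.5 bp (with bounds as deposited). Their density was 12.2 (without replicate 2) to 32.3 times that of the list, against 27.3 times as reported. The share in the first 41 kb was 0%, fixed in advance since every untreated region there has 1 member peak per replicate. With a replicate left out, 8.33% of PMA regions had a partner. Leaving out PMA replicate 2 or 3 gave 0 PMA regions and 0% of untreated regions with a partner, since no PMA region at Fyn has more than 2 member peaks from a replicate. At −log10 q values of 3 or more, 11 untreated regions remained, and 9.09% of untreated and 10.0% of PMA regions had a partner. With the untreated list cut to the length of the PMA list by −log10 q, 5 untreated regions remained, with a median fold of 5.24 and support from every replicate in 100% against 95.5%, and 16.7% of PMA regions had a partner. Of the 6 untreated partners 4 had a −log10 q under 3. Regions wholly inside the span, a span wider by 50 kb on each side, joining within 1 kb, partners within 1 kb or overlapping by at least 0.5 of the narrower region, width-weighted folds and, added after seeing the data, member peaks in all 3 replicates gave values close to those reported.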
